A study of Mus musculus with 5 samples.

Results

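The mouse miRNAs described here are mmu-miR-143, mmu-miR-145, mmu-miR-199a-3p, mmu-miR-199b, mmu-miR-199a-5p and mmu-miR-214, a group known from smooth muscle and stroma. They were taken by name from tag counts of small RNA libraries of mouse testis cells, as 6 of the 593 mature miRNA names with a count. Because miR-199a-3p and miR-199b shared all of their tags, the 6 names gave 5 measurements, and miR-199a-3p stands below for both names. The 5 libraries all came from C57BL/6 testis and fell into 3 groups. The first was a single germ cell culture enriched for spermatogonial stem cells, grown for about 10 passages from Thy1+ cells. The second was fresh Thy1+ cells (2 libraries), selected with magnetic beads carrying a Thy1.2 antibody and enriched for these stem cells. The third was the fresh Thy1- cells (2 libraries), the somatic-enriched remainder of that selection.

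Thy1 is a surface protein of undifferentiated spermatogonia, and also of T cells and many fibroblasts, so the sort enriches cells without purifying them. The labels give 1 culture, no donor age, no medium, and no word on whether other cells were grown with the germ cells. One label field gives the Thy1- libraries the stem cell type although their titles and sources describe depleted, somatic-enriched cells. The labels do not say that the replicates came from separate animals, so the p-values measure only the spread between these libraries. The libraries held 5110007 miRNA counts in culture, 937002 and 947687 in Thy1+, and 2548234 and 4909753 in Thy1-. Levels are given in counts per 1000000 miRNA counts (CPM), with replicate 1 of a group before replicate 2. Intervals of a single library are 95% intervals for counting error only.

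MiRNAs are cut from hairpin precursors whose arms each give a mature strand, and bases 2 to 8, the seed, select target mRNAs. The miR-143 and miR-145 hairpins lie next to each other and are known for their abundance in smooth muscle, where miR-145 supports the contractile state. In the testis, smooth muscle-like peritubular myoid cells surround the tubules. The Mir199a-2 and Mir214 hairpins lie in the long non-coding RNA Dnm3os, which is known from mesenchyme and is transcribed opposite to the dynamin gene Dnm3.

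In the GRCm38 annotation (GENCODE vM21), Mir199a-2 (chr1:162217814-162217923) and Mir214 (chr1:162223368-162223477) lay on the plus strand 5444 bases apart, within exonic sequence of Dnm3os and opposite an intron of Dnm3. Mir199a-1 (chr9:21496495-21496564, minus strand) lay opposite an intron of Dnm2, and Mir199b (chr2:32318460-32318569, plus strand) opposite an intron of Dnm1. Each miR-199 hairpin was thus placed inside a dynamin gene, on the other strand. The mature strands of these hairpins are shown because they decide which locus a tag can be given to. They are taken from RefSeq (GRCm38.p6), 5′ to 3′, except miR-199b*, which is a deposited tag with 0 mismatches that was found in the RefSeq hairpin. Capitals mark the seed.
miR-199a-3p, also miR-199b-3p: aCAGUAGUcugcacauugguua
miR-199a-5p: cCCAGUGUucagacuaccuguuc
miR-199b*: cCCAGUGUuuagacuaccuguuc
miR-214: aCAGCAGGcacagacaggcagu
miR-214*: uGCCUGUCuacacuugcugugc

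The 3p strand is the same letter for letter from Mir199a-1 (chr9:21496498-21496519), Mir199a-2 (chr1:162217883-162217904) and Mir199b (chr2:32318524-32318545), so its counts cannot be given to a locus. MiR-199a-5p and miR-199b* have the same seed and differ by 1 substitution, C10U, counted from the 5′ end of miR-199a-5p, so the 5p counts separate Mir199b from the pair of Mir199a loci. The seed of miR-214 is shared with none of the others. In the same annotation Mir143 lay at chr18:61649196-61649258 and Mir145a at chr18:61647825-61647894, both on the minus strand and 1301 bases apart, and neither overlapped another annotated gene of the kinds searched.

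All 5 measurements were present in every library, at levels that spanned more than 2 orders of magnitude. MiR-143, described in smooth muscle with miR-145, was the most abundant of them in 4 of the 5 libraries. Its level was 37950 CPM in culture (rank 6 among all names), 17369 and 18967 in Thy1+, and 29956 and 11618 in Thy1-. The culture was highest, the Thy1+ replicates lay close together, and the Thy1- replicates lay on either side of them. MiR-199a-3p, the strand shared by the 3 loci, was at 24191 CPM in culture (rank 7), 8410 and 16366 in Thy1+, and 13238 and 16180 in Thy1-. It exceeded miR-143 in Thy1- replicate 2 alone, and its Thy1+ values spanned the Thy1- values.

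MiR-199a-5p, the opposite strand of the Mir199a hairpins, was at 2438 CPM in culture, 1076 and 2320 in Thy1+, and 2146 and 2634 in Thy1-. On this scale Thy1+ replicate 1 stood lowest and the other 4 libraries lay near each other. Under the trimmed mean (TMM) scaling of the tests below, culture stood highest instead. MiR-199a-5p was then at 5399 CPM in culture, 789 and 1402 in Thy1+, and 1952 and 2949 in Thy1-. MiR-145, the partner of miR-143, was at 234 CPM in culture, 313 and 310 in Thy1+, and 830 and 323 in Thy1-. It was the only measurement that was lowest in culture on this scale, and Thy1- replicate 2 lay just above both Thy1+ libraries. Under TMM scaling miR-145 was instead at 519 CPM in culture, above 229 and 187 in Thy1+, with 755 and 361 in Thy1-. MiR-214, encoded beside Mir199a-2, was the least abundant, at 163 CPM in culture, 43.8 and 125 in Thy1+, and 83.2 and 98.0 in Thy1-. The Thy1+ replicate 1 value rests on 41 counts.

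For all 5 measurements the means of the fresh groups differed by less than the larger of their SDs. MiR-143 averaged 18168 ± 1130 CPM in Thy1+ and 20787 ± 12967 CPM in Thy1- (SD, n = 2 each). MiR-199a-3p averaged 12388 ± 5626 CPM in Thy1+ and 14709 ± 2080 CPM in Thy1- (SD, n = 2 each). MiR-145 averaged 311 ± 1.75 CPM in Thy1+ and 576 ± 358 CPM in Thy1- (SD, n = 2 each). Together the 5 measurements held 6.50% of the miRNA counts in culture, 2.72% and 3.81% in Thy1+, and 4.63% and 3.09% in Thy1-. In bulk RNA, fewer cells of a type and less of a miRNA per cell cannot be told apart.

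**Figure D1:**
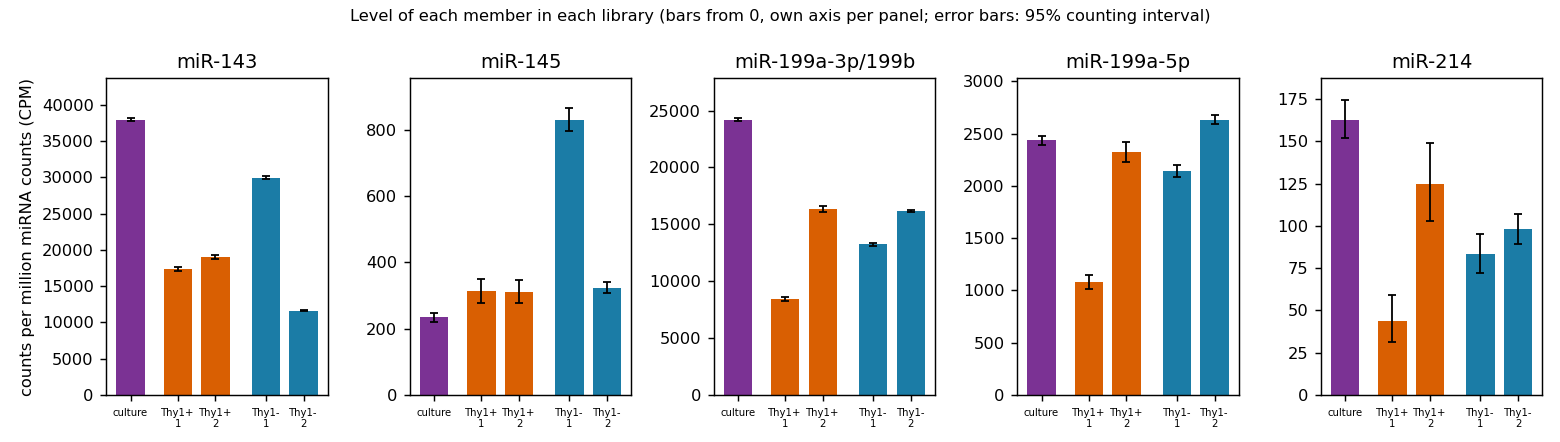
Level of each measurement in each library, in CPM, with an axis of its own per panel and 95% counting intervals. On this scale of total counts, culture stands highest for miR-143, miR-199a-3p and miR-214 and lowest for miR-145 (234 CPM). Thy1- replicate 1 stands alone at 830 CPM of miR-145.

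Culture was compared with fresh Thy1+ cells, the kind of population it was derived from, with edgeR on all 5 libraries and trimmed mean (TMM) scaling. The culture library has no replicate and was assumed to vary like the fresh groups. MiR-143, miR-199a-3p, miR-199a-5p and miR-214 rose, 4 of the 5 (9.17% of the 469 names tested rose, and 21.7% changed in either direction), at adjusted p under 0.05 (Benjamini-Hochberg over all names). The log2 fold change was 2.80 for miR-143 (SE 0.59, 95% interval 1.44 to 4.16, adjusted p = 0.0198 by edgeR). It was 2.74 for miR-199a-3p (SE 0.57, adjusted p = 0.0189), 2.30 for miR-199a-5p (SE 0.61, adjusted p = 0.0344) and 2.74 for miR-214 (SE 0.71, adjusted p = 0.0344). MiR-145 did not pass, at 1.32 (SE 0.66, 95% interval -0.21 to 2.84, adjusted p = 0.182). The median of the 5 was 2.74, against -0.02 over all names tested.

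These calls rest on the scaling between libraries and on both Thy1+ libraries. The TMM factor was 0.452 in culture, against 1.36 and 1.66 in Thy1+ and 1.10 and 0.893 in Thy1-, and scaling to total counts instead moved all culture against Thy1+ fold changes by about -1.73 on the log2 scale. Under that scaling the 4 fold changes were 1.06, 0.97, 0.52 and 0.95, and miR-145 changed sign to -0.41. EdgeR then called 0 of the 5 (36.7% of all names), with 0 at an unadjusted p under 0.05. DESeq2 with its own scaling called 4. Limma-voom also called 4, but it used the same TMM factors as the main fit, so it does not test the scaling. MiR-143, miR-199a-3p, miR-199a-5p and miR-214 thus ranked above most miRNAs in their change, at the 95.5th, 95.1st, 91.9th and 95.3rd percentile of all names under TMM. Without Thy1+ replicate 1 or without Thy1+ replicate 2, edgeR called 0 of the 5 (2 and 3 at an unadjusted p under 0.05), in fits that called 17 of 468 and 0 of 460 names, with log2 fold changes of the 4 between 1.92 and 3.09. Without Thy1- replicate 1 it called 2, miR-143 and miR-199a-3p, and 67 of 464 names.

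Culture against fresh Thy1- cells uses the same culture library, so it is no second test of the culture. MiR-143 and miR-199a-3p rose, 2 of the 5 (18.1% of the 469 names tested rose, and 33.9% changed in either direction). The log2 fold change was 2.06 for miR-143 (SE 0.59, edgeR adjusted p = 0.0299) and 1.83 for miR-199a-3p (SE 0.57, edgeR adjusted p = 0.03996). The values for miR-214 were 1.96 (SE 0.70, adjusted p = 0.0617), for miR-199a-5p 1.14 (SE 0.61, adjusted p = 0.180) and for miR-145 -0.11 (SE 0.69, 95% interval -1.69 to 1.48, adjusted p = 0.916), all by edgeR. The median of the 5 was 1.83, against -0.07 over all names tested, and the 5 lay between the 49.2nd and the 82.3rd percentile of all names.

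Total count scaling moved this comparison by about -1.12 on the log2 scale, and edgeR then called 0 of the 5 (33.5% of all names), with 0 at an unadjusted p under 0.05, whereas DESeq2 called 3 and limma-voom 2. Without Thy1+ replicate 1 or without Thy1+ replicate 2, edgeR called 0 of the 5 (1 at an unadjusted p under 0.05 in each case), in fits that called 112 of 468 and 46 of 460 names. Without Thy1- replicate 1 it called miR-143 (log2 2.41, adjusted p = 0.0440) and 98 of 464 names, and without Thy1- replicate 2 it called miR-199a-3p (log2 2.09, adjusted p = 0.0331) and 132 of 449 names. With only the 3 libraries compared it called 0 of the 5, with 1 at an unadjusted p under 0.05, in a fit that called 0 of 450 names.

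Fresh Thy1+ against Thy1- cells asks how the stem cell-enriched and the somatic-enriched fraction of the sort differ. EdgeR called 0 of the 5 on the 4 fresh libraries (26.2% of the 424 names tested were called), with 1 at an unadjusted p under 0.05. DESeq2 and limma-voom called 0 as well, with 2 and 0 at an unadjusted p under 0.05. All 5 fold changes were below 0, with a median of -0.89, against -0.09 over all names tested. MiR-145 had the lowest log2 fold change, -1.42 (SE 0.56, 95% interval -2.74 to -0.10, edgeR adjusted p = 0.0972), and miR-199a-5p followed at -1.14 (SE 0.50, edgeR adjusted p = 0.122). MiR-143 was at -0.73 (95% interval -1.95 to 0.49), miR-199a-3p at -0.89 (-2.03 to 0.24) and miR-214 at -0.77 (-2.16 to 0.62). These intervals include both 0 and a several-fold difference.

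Total count scaling moved the fresh comparison by about 0.59 on the log2 scale, and the median of the 5 was then -0.25, with 0 of the 5 called by edgeR (28.5% of all names) and 0 at an unadjusted p under 0.05. Without Thy1- replicate 1, the library with the high miR-143 and miR-145 levels, the fold change of miR-143 turned to 0.11. Without Thy1- replicate 2, miR-145 passed at -1.83 (edgeR adjusted p = 0.0368), 1 of the 5 in a fit that called 109 of 414 names.

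**Figure D2:**
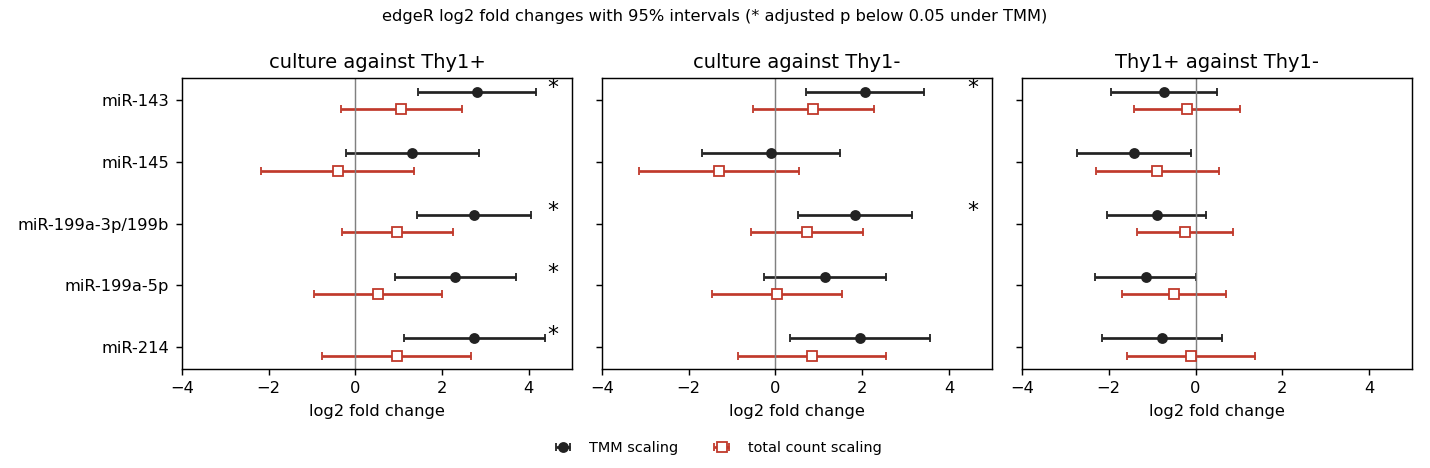
EdgeR log2 fold changes of the 5 measurements (points) with 95% intervals (bars) in the 3 comparisons, under TMM scaling (filled circles) and total count scaling (open squares); a positive value means higher in the first-named group, and asterisks mark adjusted p under 0.05 under TMM. Under total count scaling every interval spans 0, and miR-145 lies lowest in each panel.

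Ratios of counts within a library do not depend on the scaling between libraries. In 3 of the 7 ratios computed the 3 groups did not overlap, and miR-199a-5p is the denominator of more than 1 of these. Between the fresh groups the exact permutation p was 0.333 for each of the 3, the smallest that 2 against 2 libraries can give. The separation is therefore a description of these libraries only. How often other pairs of miRNAs separate the groups in this way was not tested. MiR-143 outnumbered miR-145 by 162 to 1 in culture (interval 153 to 172), by 55.55 and 61.14 to 1 in Thy1+ (49.5 to 62.6 and 54.5 to 68.8), and by 36.1 and 36.0 to 1 in Thy1- (34.6 to 37.7 and 34.3 to 37.9). In these libraries the balance between the products of the neighbouring hairpins did not overlap between the fresh groups. The levels of both miRNAs nevertheless differed more than 2-fold between the Thy1- replicates. The mean log2 ratio was 5.86 ± 0.10 in Thy1+ and 5.17 ± 0.003 in Thy1- (SD, n = 2 each), a difference of 0.69. The single culture value lay 1.48 above the Thy1+ mean and 2.17 above the Thy1- mean.

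The ratio of miR-199a-3p to miR-199a-5p followed the same order. It is not a strand ratio of a single locus, because the 3p counts include Mir199b and the 5p counts leave out miR-199b*. Among 5p tags with 0 mismatches, the share of miR-199b* differed between libraries, from 2.45% in culture to 15.2% in Thy1+ replicate 2. MiR-199a-3p outnumbered miR-199a-5p by 9.92 to 1 in culture (interval 9.74 to 10.1), by 7.82 and 7.05 to 1 in Thy1+, and by 6.17 and 6.14 to 1 in Thy1-. The groups did not overlap, and the fresh groups differed by 0.27 on the log2 scale. MiR-214 and miR-199a-5p can both be made from the Dnm3os locus, with 14.98 miR-199a-5p counts per miR-214 count in culture, 24.6 and 18.6 in Thy1+, and 25.8 and 26.9 in Thy1-. These fresh groups did not overlap, but Thy1+ replicate 1 lay within counting error of both Thy1- libraries. For each of these 3 ratios the two-sided exact permutation p was 0.333, the smallest that 2 against 2 libraries can give, or 0.778 after Benjamini-Hochberg adjustment over the 7 ratios computed.

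The other 4 ratios showed no such order, with an exact permutation p of 1 each between the fresh groups. MiR-199a-3p over miR-143 was 0.637 in culture, 0.484 and 0.863 in Thy1+, and 0.442 and 1.39 in Thy1-. MiR-143 was thus high relative to miR-199a-3p in replicate 1 of both fresh groups, and the groups overlapped. In Thy1+ the level of miR-143 itself was not higher in replicate 1 (17369 against 18967 CPM), whereas miR-199a-3p was lower there (8410 against 16366 CPM).

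**Figure D3:**
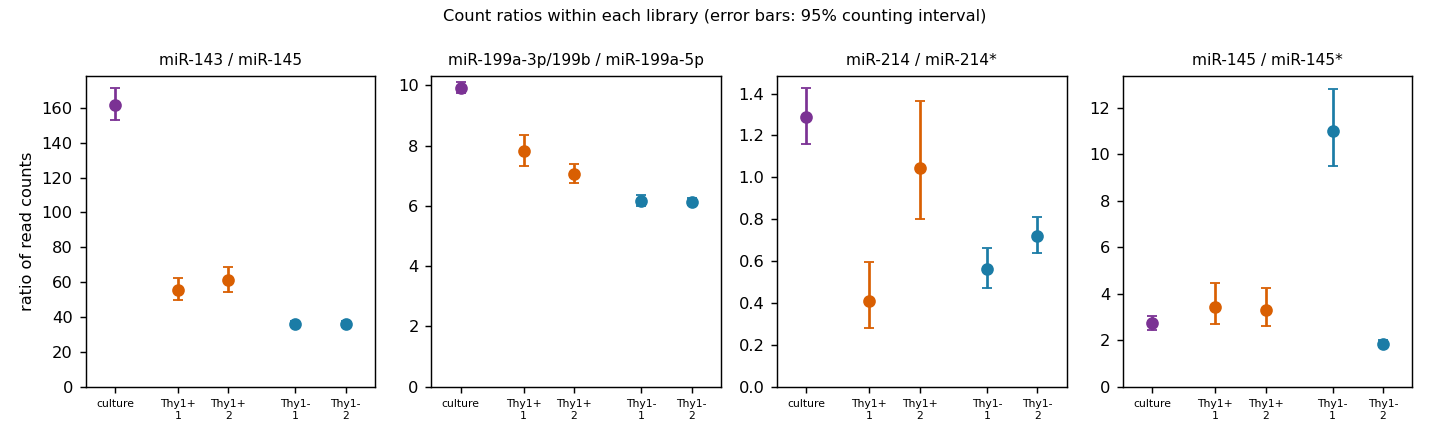
Ratio of read counts within each library for 4 pairs of miRNA strands, each on an axis from 0, with 95% counting intervals. MiR-143 over miR-145 and miR-199a-3p over miR-199a-5p stand highest in culture and lowest in Thy1-, with close replicates, whereas the miR-145 arms differ between the Thy1- replicates (11.01 and 1.85).

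The other arms of the same hairpins were read where the files name them, which gave miR-145*, miR-199b* and miR-214*. MiR-145* was at 86.1 CPM in culture, 90.7 and 93.9 in Thy1+, and 75.3 and 174 in Thy1-. Its level was highest in Thy1- replicate 2, whereas that of miR-145 was highest in Thy1- replicate 1, and miR-145 over miR-145* was 2.72 in culture, 3.45 and 3.30 in Thy1+, and 11.01 (interval 9.49 to 12.8) and 1.85 (1.70 to 2.01) in Thy1-. MiR-214* was at 127 CPM in culture, 107 and 119 in Thy1+, and 149 and 136 in Thy1-, a 1.39-fold range against 3.72-fold for miR-214. This narrow range depends on the scaling, since per TMM-scaled library size miR-214* was at 280 CPM in culture, 78.3 and 72.0 in Thy1+, and 135 and 153 in Thy1-. MiR-214* outnumbered miR-214 in 3 of the 5 libraries, as the ratio of miR-214 over miR-214* was 1.29 in culture, 0.410 and 1.04 in Thy1+, and 0.559 and 0.718 in Thy1-. The lowest edgeR adjusted p of these 3 arms over the 3 comparisons was 0.0547, for miR-214* in culture against Thy1+ (log2 1.90).

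The single base that separates the 5p strands gave the share of 5p counts with the Mir199b letters, and the more abundant 3p strand cannot be divided in this way. Among tags with 0 mismatches that matched 1 of the 5p names, miR-199b* made up 2.45% in culture (interval 2.18 to 2.74), 4.84% (3.59 to 6.37) and 15.2% (13.8 to 16.7) in Thy1+, and 13.6% (12.8 to 14.5) and 6.72% (6.29 to 7.17) in Thy1-. Most 5p counts thus carried the Mir199a letters in every library. The share was lowest in culture, and the replicates of each fresh group differed beyond counting error, in Thy1+ by about 3-fold, so the fresh groups overlapped. In level, miR-199b* was at 65.6 CPM in culture, 63.0 and 416 in Thy1+, and 336 and 196 in Thy1-.

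MiR-199a-3p was rarely read at its full length. Its main forms were these 3 tags, given in DNA letters with the seed in capitals, because the last base sets them apart.
22 bases: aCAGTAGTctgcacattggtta
21 bases: aCAGTAGTctgcacattggtt
20 bases: aCAGTAGTctgcacattggt

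The 21-base form held 47.8% of the counts in culture, 55.0% and 48.7% in Thy1+, and 50.5% and 52.6% in Thy1-, and was the leading form in every library. The 22-base form held 7.01% in culture, 2.81% and 13.1% in Thy1+, and 11.4% and 5.57% in Thy1-. All tags that reached the annotated end, mismatched ones included, came to 10.5% in culture, 4.72% and 20.2% in Thy1+, and 17.2% and 8.02% in Thy1-. Within each fresh group the library with the larger share of full-length 3p tags was also the one with the larger share of miR-199b*, a description over 5 libraries of 2 measures that share the library. MiR-199a-5p showed no such spread, with 76.9% of counts at the annotated end in culture, 81.3% and 79.2% in Thy1+, and 83.2% and 82.3% in Thy1-.

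**Figure D4:**
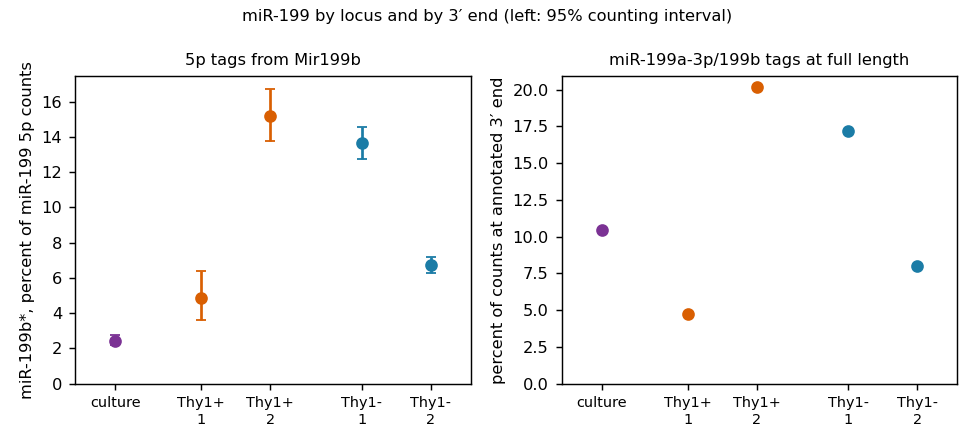
Left, miR-199b* as a percent of the 0-mismatch miR-199 5p counts in each library, with 95% counting intervals; right, percent of miR-199a-3p counts that reach the annotated 3′ end. Thy1+ replicate 2 and Thy1- replicate 1 stand highest in both panels, at 15.2% and 13.6% on the left.

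The 3′ ends of the other measurements differed between miRNAs. MiR-143, annotated at 21 bases, was read mostly as a 20-base tag, which held 81.2% of its counts in culture, 77.1% and 75.2% in Thy1+, and 72.3% and 67.5% in Thy1-. MiR-145 reached its annotated end in 46.3% of counts in culture, below 63.1% and 58.2% in Thy1+ and 62.5% and 63.6% in Thy1-. Over all miRNAs, 28.3% of counts ended before the annotated end in culture, 28.8% and 31.6% in Thy1+, and 35.8% and 36.2% in Thy1-, so the lower share of full-length miR-145 in culture did not follow the libraries as a whole.

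MiR-214 carried the most changed tails. Tags that differed from the reference at their last base only made up 29.3% of its counts in culture, 31.7% and 28.8% in Thy1+, and 30.2% and 25.4% in Thy1-. An A was the most frequent such base in every library, at 15.8% of miR-214 counts in culture, 29.3% and 17.8% in Thy1+, and 20.8% and 17.5% in Thy1-. The other 4 measurements stayed between about 1.1% and 6.3% for the same feature. The deposited tags of these miRNAs held none that ended past the annotated 3′ end and none with more than 2 mismatches, so longer tails are not seen here.

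**Figure D5:**
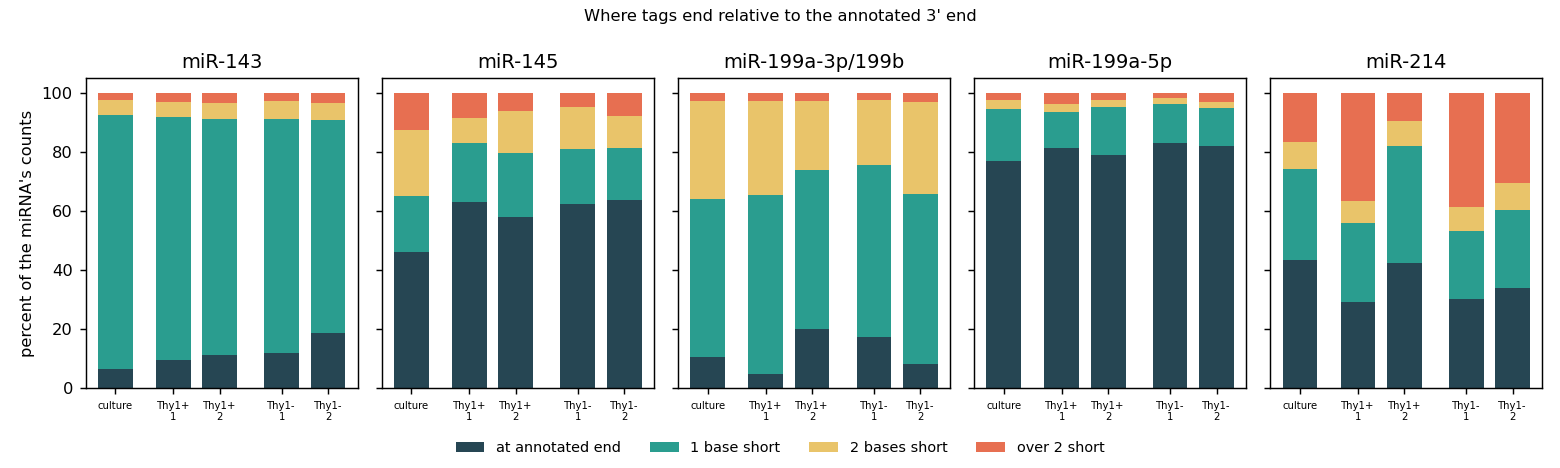
Percent of each measurement's counts in each library by where the tag ends relative to the annotated 3′ end (at the end, 1 base short, 2 bases short, over 2 short). No deposited tag of these miRNAs ended past it. The dark segment is large for miR-199a-5p (76.9% in culture) and small for miR-199a-3p (10.5% in culture), and for miR-145 it is smaller in culture than in the 4 fresh libraries.

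The 5′ end sets the seed, and it was held in nearly all counts of miR-145, at least 98.98% of which began at base 1 in every library. No deposited tag of the measurements began before base 1, so the shares count downstream starts only. For miR-143 the share that began at base 1 was 95.7% in culture, 93.1% and 93.2% in Thy1+, and 92.4% and 85.7% in Thy1-. Thy1- replicate 2 stood apart, with 5.54% of miR-143 counts beginning at base 4, and it was also the library with the lowest miR-143 level. MiR-214* began downstream of base 1 in 23.0% of counts in culture, 21.0% and 24.8% in Thy1+, and 30.6% and 51.5% in Thy1-. Over all miRNAs in Thy1- replicate 2, 3.89% of counts began downstream of base 1, within the range of 2.84% to 5.80% of the libraries, so neither shift extended to the library as a whole.

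Across the 5 libraries, the profiles of miR-199a-3p, miR-199a-5p and miR-214 were most like each other and like miR-152, a miRNA of the miR-148 family. Likeness was measured as the root mean square (RMS) difference of log2(CPM + 1) profiles after TMM scaling, each centred on its own mean, over 223 names that averaged at least 100 CPM. MiR-214 was the nearest profile to miR-199a-3p (RMS difference 0.17), with miR-199a-5p second (0.26), where the median over all candidates was 1.34. MiR-152 was the nearest to miR-199a-5p (0.18). MiR-143 was nearest to miR-210, a miRNA induced by hypoxia (0.27), then miR-26a (0.38) and miR-23b (0.49). MiR-145 was nearest to miR-30c-2* (0.26), miR-542-3p (0.31) and the p53 target miR-34a (0.31). MiR-143 and miR-145 differed by 0.79, so the neighbouring hairpins were less alike in profile than the 3 miR-199a and miR-214 products among themselves.

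A list of 13 other miRNAs known from mesenchyme or smooth muscle gave a background for the group. It held miR-10a, miR-10b, miR-21, miR-22, miR-99a, miR-100, miR-125b-5p, miR-140, miR-140*, miR-152, miR-195, miR-218 and miR-497. In culture against Thy1+, 5 of the 13 rose (miR-21, miR-22, miR-125b-5p, miR-152 and miR-218) and 0 passed as lower. The median log2 fold change was 1.46, where 9.17% of all names tested rose. MiR-99a (-0.28) and miR-497 (-0.57) lay below 0 without passing. MiR-21, which is widely induced in cultured and injured cells, was at 3.72 (SE 0.51, edgeR adjusted p = 0.0126) and passed under total count scaling as well (1.98, adjusted p = 0.0129 by edgeR), which none of the 5 did. Under that scaling 1 of the 13 rose and 1 fell (miR-497). In culture against Thy1-, 3 of the 13 rose (miR-10a, miR-21 and miR-218) and 0 passed as lower, with a median of 1.147, where 18.1% of all names tested rose. MiR-99a (-1.58), miR-10b (-0.65), miR-497 (-0.60) and miR-140* (-0.02) lay below 0 without passing. Under total count scaling 1 rose and 1 fell (miR-99a). In Thy1+ against Thy1-, edgeR called 0 of the 13, with 4 at an unadjusted p under 0.05 (26.2% of all names were called), while DESeq2 called 3 and limma-voom 1. The median there was -1.01, and under total count scaling miR-10a and miR-21 passed as higher in Thy1+.

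Markers of other cells moved between the same libraries, and their part in the results above was not tested. The 5 white blood cell miRNAs summed to 937 CPM in culture, 14900 and 26540 in Thy1+, and 2017 and 1346 in Thy1-. By edgeR all 5 were called higher in Thy1+ than in Thy1-, as were 78 of the 424 names tested. Against the direction of the sum, miR-155 was called higher in culture than in Thy1- (log2 4.64, edgeR adjusted p = 0.003). The 6 miRNAs of spermatogonia and pluripotent cells summed to 737 CPM in culture, 6303 and 13370 in Thy1+, and 1029 and 602 in Thy1-. By edgeR 5 of the 6 were called higher in Thy1+ than in Thy1-, and miR-292-3p was higher without passing (log2 1.42, edgeR adjusted p = 0.218). The pair of gonadal supporting cell arms, miR-202-3p and miR-202-5p, summed to 173 CPM in culture, 1138 and 2205 in Thy1+, and 18580 and 3712 in Thy1-. Thy1- replicate 1, which had the most miR-145, thus also had the most miR-202.

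The striated muscle list (miR-1, miR-133a, miR-133b and miR-206) summed to 1156 CPM in culture, 1524 and 1677 in Thy1+, and 1041 and 311 in Thy1-, with miR-133a and miR-133b at 0 in culture and miR-133b at 0 in Thy1+ replicate 1. This sum joins members of unlike levels. MiR-206 was at 1062 CPM in culture, 149 and 362 in Thy1+, and 33.7 and 14.9 in Thy1-, and by edgeR under TMM it was called higher in the first-named group of all 3 comparisons. MiR-1 was at 93.9 CPM in culture, 1374 and 1311 in Thy1+, and 998 and 295 in Thy1-. Endothelial miR-126 arms summed to 562 CPM in culture, 1918 and 2605 in Thy1+, and 964 and 1678 in Thy1-. The 3 meiotic germ cell miRNAs (miR-34b-5p, miR-34c and miR-449a) summed to 196200 CPM in culture, 106800 and 23730 in Thy1+, and 49490 and 8581 in Thy1-. The sum thus differed more than 4-fold between replicates of each fresh group. It was carried by miR-34c, at 195530 CPM in culture. MiR-449a was instead lower in culture than in Thy1+, at 39.3 CPM in culture, 699 and 152 in Thy1+, and 325 and 10.4 in Thy1-. The red blood cell list summed to 12.5 CPM in culture, 252 and 179 in Thy1+, and 1344 and 1475 in Thy1-. The 5 epithelial miR-200 family members summed to 80.4 CPM in culture, 1293 and 752 in Thy1+, and 463 and 518 in Thy1-. The higher Thy1+ sum was carried by miR-200c, at 868 and 464 CPM in Thy1+ against 14.9 and 38.7 in Thy1-, whereas miR-200a and miR-429 were lower in both Thy1+ libraries than in both Thy1- libraries (log2 -1.71 and -1.47, edgeR adjusted p = 0.0722 and 0.106).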

How the data were processed

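Small RNA was extracted with Trizol and made into libraries with a pair of Illumina small RNA protocols, per the labels' protocols, with no word on which library had which. The deposited files hold raw read counts per tag with the miRNA names and positions each tag matched; the submitters' processing notes name DESeq, and no source used here gives the aligner, its settings or the build. Tags held 15 to 25 bases and up to 2 mismatches, which reached 5.06% to 9.08% of counts.

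Counts were summed per mature miRNA, tags tied between names being split equally, and miR-199a-3p and miR-199b were merged. EdgeR 4.0.16 (R 4.3.3; quasi-likelihood test, TMM, filterByExpr) was fitted over all names with Benjamini-Hochberg adjustment, on the 4 fresh libraries for Thy1+ against Thy1- and on all 5 for culture. Alternatives were total count and RLE scaling, DESeq2 1.42.0, limma-voom (limma 3.58.1), no filter, other tag rules, each library left out and a replicate block. The procedure was tested on simulated data with less spread between libraries than these data show, so that test does not give its error rates here. Ratios within libraries were compared by exact permutation. A level of 3 counts corresponds to 0.587 CPM in the deepest and 3.20 CPM in the shallowest library. Named miRNAs are all members, the other arms of their hairpins, the mesenchymal list, and the 3 nearest profiles of each member. Members and lists were chosen with earlier results of these data known.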

Additional observations from a re-analysis of the deposited data

How the results depend on the processing

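For the 5 measurements, single fold changes under the alternatives kept direction and side of the threshold in 164 cases, lost the call in 24, gained it in 3 and changed sign in 4. The sign changes were miR-143 in Thy1+ against Thy1- without Thy1- replicate 1 (0.11), miR-145 in culture against Thy1+ under total count scaling (-0.41), and miR-145 in culture against Thy1- with limma-voom (0.0033) and without Thy1- replicate 1 (0.24); with 1 library left out, these ranged between -1.15 and 0.11 for miR-143 in the fresh comparison and between -0.60 and 0.24 for miR-145 in culture against Thy1-. The cause was not tested. Total count scaling left 0 of the 5 called in both culture comparisons, and 172 names in culture against Thy1+. With only the 3 libraries compared, 156 names were called in culture against Thy1+, and 0 names and 0 of the 5 in culture against Thy1-, where fewer samples estimate the spread. With 1 library left out, the number of the 5 called ranged between 0 and 1 in Thy1+ against Thy1-, 0 and 4 in culture against Thy1+, and 0 and 1 in culture against Thy1-; over all names the ranges were 0 to 138, 0 to 122 and 46 to 132. A group left with 1 library was assumed to vary like the others. DESeq2 and the fit without a low count filter called 3 of the 5 in culture against Thy1-, adding miR-214. Same-numbered Thy1+ and Thy1- libraries did not deviate together across names (r = -0.035 over 386 names). With 2 pairs this cannot show whether the numbers mark a shared animal or day. Single names did shift together, as miR-34c was higher in replicate 1 of both fresh groups (105490 against 23389 CPM in Thy1+, 48794 against 8498 in Thy1-). With the replicate block, 38 names (33 higher, 5 lower) and 0 of the 5 were called. No paired analysis was possible for culture because it shares fewer than 2 numbers with the fresh groups. The 3 ratios in which the groups did not overlap kept their direction in every alternative run; with 1 fresh library left out the log2 difference between Thy1+ and Thy1- ranged between 0.62 and 0.76 for miR-143 over miR-145, 0.20 and 0.34 for miR-199a-3p over miR-199a-5p, and 0.10 and 0.50 for miR-214 over miR-199a-5p. Depth limits miR-214 most, with 41 counts in Thy1+ replicate 1.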
